A study of Mus musculus with 2 samples.

Results

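The genes described here are 10 feedback genes and targets of the ERK pathway in AML12, a nontumorigenic mouse hepatocyte line. They are 4 MAP kinase phosphatase genes (Dusp1, Dusp4, Dusp5 and Dusp6), 3 Sprouty genes (Spry1, Spry2 and Spry4), 2 Spred genes (Spred1 and Spred2) and the Ets transcription factor gene Etv4. They were taken by symbol from a table of 21145 genes, in which all 10 had a row. The rule itself used no measured values, but the genes were chosen with earlier results of these data known. The H19 library came from AML12 cells that a recombinant lentivirus (Lv-H19) made to express H19, a long noncoding RNA, and the control library from cells infected with the control virus (Lv-NC). Both were stable lines selected with 0.5 mg/ml and kept in 0.25 mg/ml puromycin, with cells at passages 14 to 16 of the strain labelled CD1/MT42. The labels name 10% serum for these lines, and for AML12 cells in general also insulin, transferrin, selenium and 40 ng/ml dexamethasone, a glucocorticoid. AML12 cells were derived from a mouse carrying a human TGF-alpha transgene, a ligand of the EGF receptor, which both groups therefore share as background.

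ERK is the last kinase of the cascade that runs from growth factor receptors through Ras, Raf and MEK to the nucleus. Its output is limited by genes that it induces itself. Dual-specificity phosphatases strip the activating phosphates from MAP kinases, Sprouty proteins damp the signal between receptor and Raf, and Spred proteins bring the Ras-inactivating protein neurofibromin to the membrane. In hepatocytes the cascade serves EGF receptor and Met signalling during regeneration, and the messages of these feedback genes are widely used as a readout of its activity.

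There was 1 library per group, so the values carry no replicate error and no p-values are given, and each difference describes these 2 libraries. Levels are FPKM, which are fragments per kilobase of a transcript relative to all mapped fragments, as the authors deposited them. Differences are of log2(FPKM + 1), H19 library minus control library, a scale that understates differences of low genes. A gene counted as measured at a mean FPKM of at least 1 over both libraries, and as past the 2-fold rule when it was measured and its log2 difference was at least 1 in size. The H19 library listed 19063 genes above 0 and the control library 19595. H19 itself, the check of the labels, was at 4.72 FPKM in the H19 library and was listed at 0 in the control library. Of the genes listed as hepatocyte markers, Krt8 and Hnf4a were present. Krt8 was at 658 FPKM in the H19 library and 909 FPKM in the control library. Hnf4a was at 44.4 FPKM in the H19 library and 74.4 FPKM in the control library. Genes listed as bile duct markers were present too and are given below. Albumin, Alb, was at 0.178 FPKM in the H19 library and 0.990 FPKM in the control library. Transthyretin, Ttr, was under 1 FPKM too (0.290 FPKM in the H19 library and 0.785 FPKM in the control library), as was Apoa1 (0.116 FPKM in the H19 library and 0.0382 FPKM in the control library). Apoe, another secreted liver protein, was at 4.06 FPKM in the H19 library and 1.51 FPKM in the control library (log2 difference 1.01), past the 2-fold rule as higher and in the authors' deposited table of differences. Alb is in that table too, as lower, with a log2 ratio of -2.47 from values under 1 FPKM in both libraries. Both libraries are bulk samples of the same cell line, in which fewer cells expressing a gene and less of its RNA per cell cannot be told apart.

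Among the 10 genes, Dusp1 was lower in the H19 library, Dusp5 and Spry4 were nearest to the rule on the higher side, and Dusp4, Spred1, Spred2 and Etv4 had nearly the same level in both libraries. All 10 genes were measured. Of them, 1 was past the 2-fold rule as lower and 0 as higher, against 1.57% and 1.14% of the 11674 measured genes (2.71% in either direction). The median log2 difference of the 10 genes was 0.05 and that of all measured genes 0.08. With the median of all measured genes set to 0 the median of the 10 genes was -0.03. The difference was above 0 for 7 genes and below 0 for 3 on the values as deposited. On those values 50% of all measured genes lay at 0.08 or more, so above 0 was the more common sign. Dusp4 (0.03), Spred1 (0.07) and Spred2 (0.02) lay above 0 but did not reach 0.08. The share of all measured genes above 0 was not computed, so the count at 0 shows no excess. The signs of Dusp4, Spred1 and Spred2 turned with the median of all genes set to 0.

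**Figure D1:**
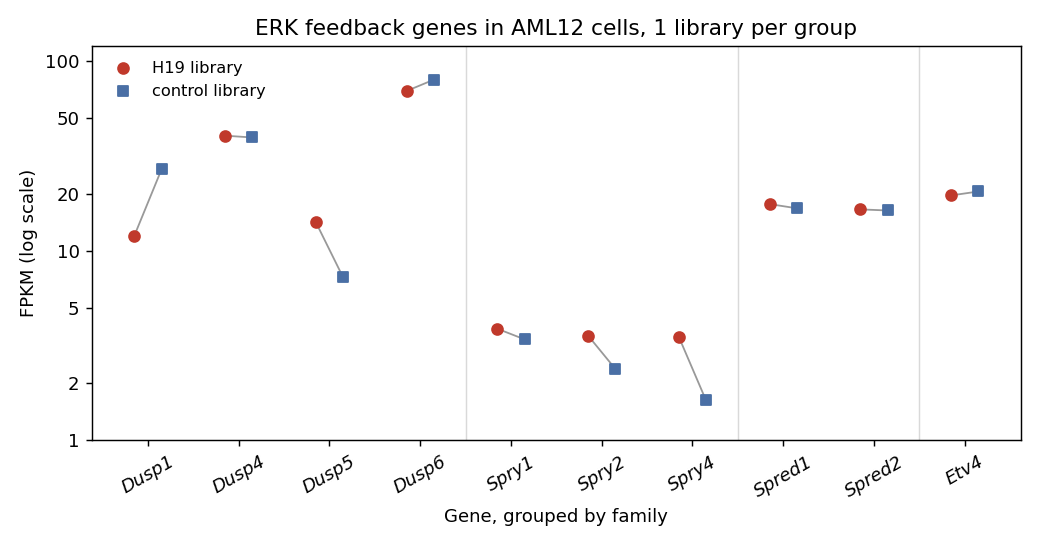
FPKM on a log axis of the 10 ERK feedback genes, 1 point per library, the H19 library (circles) left of the control library (squares), with families separated by vertical lines. Dusp1 is lower in the H19 library, at 12.0 against 26.9 FPKM, while Spred1, Spred2 and Etv4 stay between 16.3 and 20.5 FPKM in both.

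The 4 MAP kinase phosphatases did not share a direction. Dusp1 (ENSMUSG00000024190, chromosome 17, 26505590 to 26508519, minus strand, GRCm38), a nuclear phosphatase of p38, JNK and ERK that stress, growth factors and glucocorticoids induce, was at 12.0 FPKM in the H19 library and 26.9 FPKM in the control library. The control value was 2.24 times the H19 value, and the log2 difference was -1.10. Differences of that size or larger were found in 1.82% of measured genes. This was the largest difference in size of the 10 genes. Dusp1 was also past the rule with a pseudocount of 0.1 or 0.01, by which 2.71% and 2.92% of measured genes were lower, with no filter (0.955% lower) and with a mean FPKM of at least 5 (1.26% lower). It was past the rule with the median of all genes set to 0 (2.04% lower), as TPM (2.72% lower) and with equal upper quartiles (2.20% lower), and not by a 3-fold rule, which 0.454% of measured genes passed in either direction. In the authors' deposited table of differences Dusp1 has a log2 ratio of -1.16 and a q-value of 0.000231. That table compares the same 2 libraries, by a test not given in the sources used here, so its q-value carries no error for the conditions. None of the other 9 genes is in it. The smallest finite log2 ratio in it is 1.00 in size, which of these 9 only Spry4 exceeds. The absence of the rest therefore carries no test result.

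Dusp5 (ENSMUSG00000034765, chromosome 19, 53529109 to 53542431, plus strand), a nuclear phosphatase specific for ERK, was at 14.1 FPKM in the H19 library and 7.24 FPKM in the control library. The H19 value was 1.95 times the control value, and the log2 difference of 0.88 lay under the 2-fold rule. Differences of that size or larger were found in 4.61% of measured genes. By a 1.5-fold rule Dusp5 and Spry4 were higher and Dusp1 was lower, beside 8.99% of measured genes higher and 6.21% lower. An annotated antisense gene overlaps the 5′ end of Dusp5, and without strand information reads of the pair cannot be told apart. Dusp5 had the highest difference of the 10 genes, opposite in sign to that of Dusp1. Dusp1 was the third and Dusp5 the fourth of the 4 phosphatases by level in the control library, and their order was the reverse in the H19 library. The ratio of Dusp5 to Dusp1 within a library was 1.18 in the H19 library and 0.269 in the control library. No scaling of whole libraries can move this ratio. The pair holds the highest and the lowest difference of the 10 genes, so a large change in their ratio follows from that choice.

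The promoter windows of Dusp1 and Dusp5, the genes with the lowest and the highest difference, are shown. They alone of the 7 windows at hand hold a match to the motifs described below, and they share 1 of these motifs. The window of Dusp6, the phosphatase with the highest level, stands beside them. Each is the RefSeq sequence on GRCm38.p6 from 250 to 51 bases before the start that RefSeq gives, read 5′ to 3′ on the gene's strand. That start is base 26508472 for Dusp1, base 53529145 for Dusp5 and base 99263231 for Dusp6. For Dusp1 and Dusp5 it lies inside the deposited locus given above, so the distances differ from those to the end of that locus. Capitals mark every match to the motifs searched on both strands.
Dusp1, chr17:26508523-26508722, minus strand: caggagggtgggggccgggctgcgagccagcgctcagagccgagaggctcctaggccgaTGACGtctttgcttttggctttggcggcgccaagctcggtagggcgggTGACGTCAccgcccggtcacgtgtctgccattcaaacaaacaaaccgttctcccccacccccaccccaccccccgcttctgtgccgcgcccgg
Dusp5, chr19:53528895-53529094, plus strand: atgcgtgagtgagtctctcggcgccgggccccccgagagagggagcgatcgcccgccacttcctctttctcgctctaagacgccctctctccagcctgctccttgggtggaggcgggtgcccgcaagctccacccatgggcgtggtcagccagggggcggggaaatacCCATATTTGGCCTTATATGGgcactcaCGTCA
Dusp6, chr10:99262981-99263180, plus strand: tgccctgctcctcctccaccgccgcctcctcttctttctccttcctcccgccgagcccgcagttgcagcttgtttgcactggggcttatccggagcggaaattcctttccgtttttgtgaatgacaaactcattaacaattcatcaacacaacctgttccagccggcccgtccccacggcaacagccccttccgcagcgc

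The motifs were the cyclic AMP response element (CRE) TGACGTCA and its core TGACG, the AP-1 site TGANTCA, the Ets site CCGGAA and the CArG box, the site of serum response factor. The Dusp1 window held 1 full CRE, 143 to 136 bases before the RefSeq start, and another core from base 191 to 187. The full CRE contains the core on both strands. Of 32851 promoter windows of the same length, 0.828% held the full CRE and 12.7% the core. The Dusp5 window held 2 CArG boxes side by side, at bases 82 to 73 and 72 to 63, and a CRE core at bases 55 to 51. A CArG box was found in 1.16% of all windows. The Dusp6 window held none of the 5 motifs, which says only that these letters are not in it. RefSeq windows were at hand for 7 of the 10 genes, and among these only Dusp1 and Dusp5 had a match. An AP-1 site was in 5.57% and the Ets site in 8.03% of all windows, and in 0 of the 7. A match is a description of the sequence, and binding at these places was not measured.

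Dusp6 (ENSMUSG00000019960, chromosome 10, 99263231 to 99267488, plus strand), the cytoplasmic phosphatase specific for ERK and a common readout of ERK activity, was at 69.5 FPKM in the H19 library and 79.7 FPKM in the control library. Its log2 difference was -0.20, a size reached by 61.5% of measured genes. Dusp4 (ENSMUSG00000031530, chromosome 8, 34807297 to 34819894, plus strand), a nuclear phosphatase of ERK and JNK, was at 40.4 FPKM in the H19 library and 39.5 FPKM in the control library, a log2 difference of 0.03 whose sign turned with the median of all genes set to 0. Of these 4 phosphatases, the more abundant pair was thus close between the libraries, while the less abundant pair lay apart in opposite directions. This describes these 4 only. Of other MAP kinase phosphatases at lower levels than Dusp1 and Dusp5, Dusp9, outside the naming rule, differed by -0.10 and Dusp8 by 0.76. Dusp6 made up 51.1% of the summed FPKM of the 4 phosphatases in the H19 library and 52.0% in the control library. The share of Dusp1 was 8.82% in the H19 library and 17.5% in the control library, and that of Dusp5 was 10.4% in the H19 library and 4.72% in the control library. The sum was 136 FPKM in the H19 library and 153 FPKM in the control library.

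**Figure D2:**
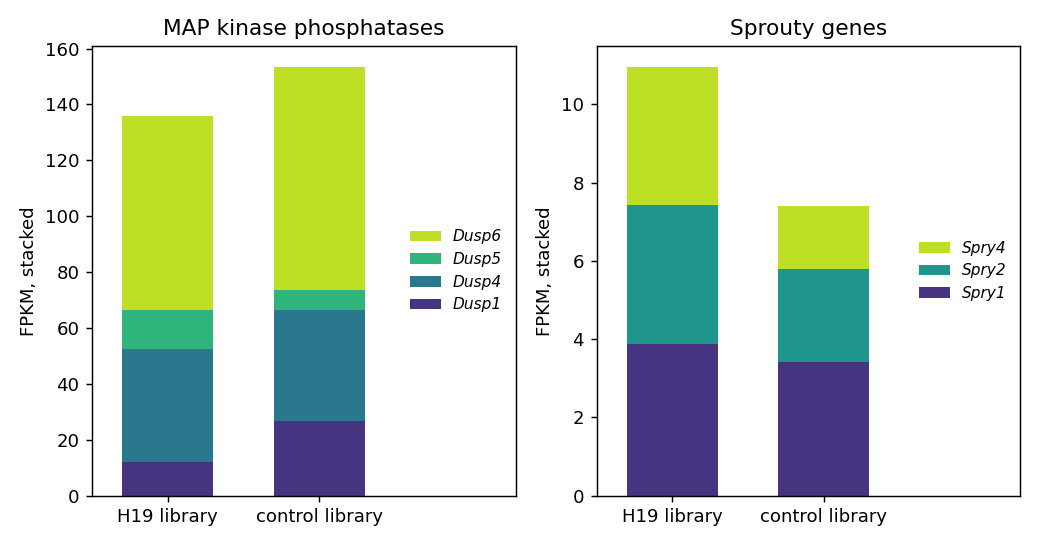
FPKM stacked by gene for the MAP kinase phosphatases and the Sprouty genes, with the H19 library left of the control library in each panel and axes that start at 0. Dusp6 is about as large a part of both phosphatase bars (51.1% in the H19 library, 52.0% in the control library), and the Spry4 segment is taller in the H19 library (3.51 against 1.62 FPKM).

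Sprouty genes were expressed at a low level, and each had a value in the H19 library above that in the control library. This held also with the median of all genes set to 0, as TPM and with equal upper quartiles. On the values as deposited, 50% of all measured genes had a difference of 0.08 or more. Spry4 (ENSMUSG00000024427, chromosome 18, 38586268 to 38601268, minus strand), an inhibitor of Raf activation, was at 3.51 FPKM in the H19 library and 1.62 FPKM in the control library. The H19 value was 2.16 times the control value, yet the log2 difference was 0.78, because a pseudocount of 1 weighs on values this low. With a pseudocount of 0.1 it was 1.07, past the 2-fold rule, by which 2.36% of measured genes were then higher, and with 0.01 it was 1.11 (2.53% higher). Spry4 is not in the authors' deposited table of differences, although its ratio exceeds the smallest ratio there (a log2 ratio of 1.00). That table appears limited by q-value too, and no q-value is at hand for Spry4.

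Spry2 (ENSMUSG00000022114, chromosome 14, 105891949 to 105896819, minus strand), which also binds the ubiquitin ligase Cbl, was at 3.56 FPKM in the H19 library and 2.38 FPKM in the control library. Its log2 difference was 0.43, a size reached by 27.5% of measured genes. Spry1 (ENSMUSG00000037211, chromosome 3, 37638579 to 37644598, plus strand), an inhibitor of receptor signalling known from kidney development, was at 3.88 FPKM in the H19 library and 3.41 FPKM in the control library, a log2 difference of 0.15. The unclassified gene Gm42922 overlaps Spry1 on the opposite strand, at 0.159 FPKM in the H19 library and 0.0792 FPKM in the control library. The order Spry1, Spry2, Spry4 was the same in both libraries, but the levels lay closer together in the H19 library. Spry1 was 1.10 times Spry4 in the H19 library and 2.10 times Spry4 in the control library. Summed, the Sprouty genes were at 10.9 FPKM in the H19 library and 7.41 FPKM in the control library, well under Dusp6 alone.

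Spred genes and Etv4 had nearly equal levels in both libraries. Spred1 (ENSMUSG00000027351, chromosome 2, 117121374 to 117182279, plus strand), whose human gene is mutated in Legius syndrome, was at 17.6 FPKM in the H19 library and 16.7 FPKM in the control library. Spred2 (ENSMUSG00000045671, chromosome 11, 19924375 to 20024026, plus strand), its close relative, was at 16.5 FPKM in the H19 library and 16.3 FPKM in the control library. Their log2 differences of 0.07 and 0.02 were among the smallest of the table, with 85.5% and 96.2% of measured genes differing by at least as much, and both turned below 0 with the median of all genes set to 0. Etv4 (ENSMUSG00000017724, chromosome 11, 101769742 to 101785371, minus strand), a PEA3 subfamily Ets factor that is induced by ERK, was at 19.5 FPKM in the H19 library and 20.5 FPKM in the control library, a log2 difference of -0.07.

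**Figure D3:**
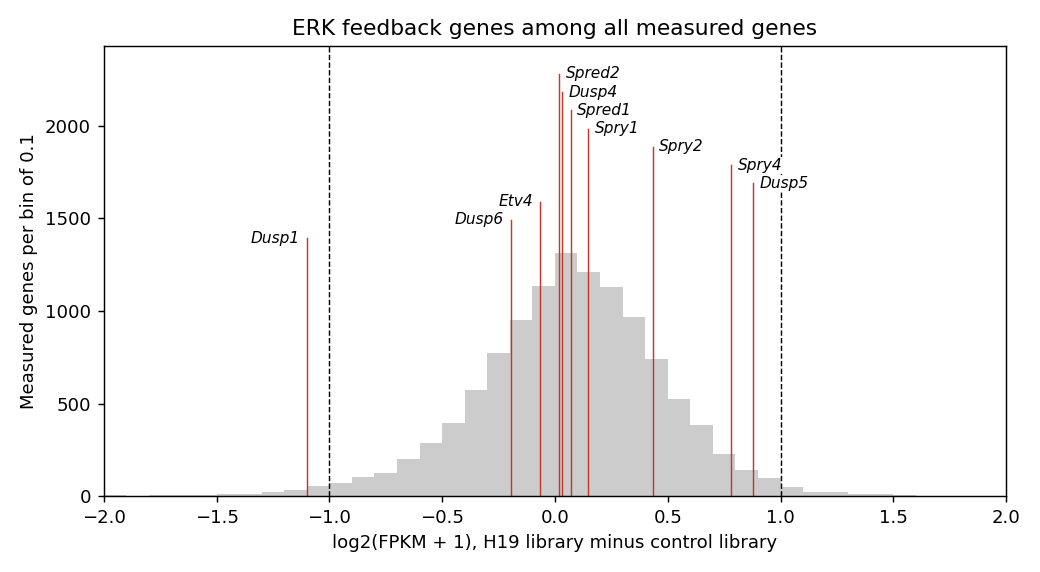
Measured genes per bin of 0.1 in the log2(FPKM + 1) difference, H19 library minus control library (grey), with the 10 ERK feedback genes as red lines whose height only separates the labels, and the 2-fold rule dashed. Dusp1 lies past the lower limit at -1.10, Dusp5 at 0.88 and Spry4 at 0.78 lie short of the upper one, and the other 7 lie between -0.20 and 0.43. Of all measured genes, 22 differed by more than 2 and lie outside the axis.

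The levels of the 10 genes, per length, ran from 69.5 FPKM for Dusp6 to 3.51 FPKM for Spry4 in the H19 library and from 79.7 FPKM to 1.62 FPKM for the same genes in the control library. In both, Dusp6 and Dusp4 led, Spred1, Spred2 and Etv4 lay in the middle and the Sprouty genes came last. Without replicates it cannot be said which neighbours in that order differ. Dusp6 ranked 1150 of all genes in the H19 library and 899 in the control library, and Spry4 ranked 9708 in the H19 library and 10998 in the control library. If the lowest common step of FPKM times length is taken as 1 fragment, the 4 genes with a single annotated transcript rested on the following numbers of fragments. Dusp4 had about 2439 in the H19 library and 2385 in the control library, and Dusp5 about 770 in the H19 library and 394 in the control library. Spry2 had about 164 in the H19 library and 109 in the control library, and Spry4 about 368 in the H19 library and 170 in the control library. The spread between cultures was not measured and adds to that counting error.

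The rest of the ERK pathway was described by 8 lists with 79 genes, of which 64 were measured. Of these, 1 was past the 2-fold rule as higher and 3 as lower, beside 1.14% and 1.57% of all measured genes. Their median log2 difference was 0.01, against 0.08 for all measured genes. Dusp2, Spry3, Etv1 and Fgf21 were not analysed here. Among the other MAP kinase phosphatases, 0 of 5 measured genes passed the rule, with a median of 0.39, which was 0.15 over those with a mean FPKM of at least 5. Dusp8, which acts on JNK and p38, was at 3.84 FPKM in the H19 library and 1.87 FPKM in the control library (log2 difference 0.76), and Dusp10, of the same substrate range, at 14.3 FPKM in the H19 library and 10.5 FPKM in the control library (0.42). Dusp8, like Spry4, passed the rule with a pseudocount of 0.1. Of the other feedback and Ras-inactivating genes 0 of 6 passed, with a median of 0.01. The largest differences there were those of Rasa3, a Ras GTPase-activating protein, at 16.7 FPKM in the H19 library and 11.4 FPKM in the control library, and Spred3, the third Spred gene, at 5.19 FPKM in the H19 library and 6.34 FPKM in the control library.

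Of the 17 core genes from adaptors to ERK, 0 passed the rule, with a median of 0.03. The largest differences were those of Mapk3, which encodes ERK1, at 37.8 FPKM in the H19 library and 62.8 FPKM in the control library (log2 difference -0.72), and the adaptor Shc1 at 50.3 FPKM in the H19 library and 82.5 FPKM in the control library (-0.70). None of the 5 measured JNK and p38 kinases passed the rule (median 0.05), with Mapk12, p38 gamma, at 5.31 FPKM in the H19 library and 3.55 FPKM in the control library and Mapk8, JNK1, at 17.4 FPKM in the H19 library and 19.3 FPKM in the control library.

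Other genes known to be induced through ERK split. Of 12 measured, 2 were lower by the rule and 0 higher, beside 1.57% and 1.14% of all measured genes, with a median of 0.06. Those were the immediate early transcription factors Fos, at 0.696 FPKM in the H19 library and 12.3 FPKM in the control library (log2 difference -2.97), and Egr1, at 1.63 FPKM in the H19 library and 12.2 FPKM in the control library (-2.33). The immediate early genes did not share a direction. Junb (log2 difference -0.10), Ier2 (0.12), Ier3 (0.15), Myc (0.70) and Fosl1 (0.84), which fall outside the naming rule, did not pass it, and Myc and Fosl1 were higher by the 1.5-fold rule. Of the feedback genes Dusp1, also an immediate early gene, was lower by the 2-fold rule, while Dusp6 and Etv4 differed by -0.20 and -0.07. Handling of cultures is known to induce immediate early genes, and its part in these values was not tested. Etv5, the PEA3 relative of Etv4, outside the naming rule, was at 12.4 FPKM in the H19 library and 10.1 FPKM in the control library. Serum response factor and its ternary complex partners were all 4 below 0 in their differences and 0 passed the rule (median -0.21). Of all measured genes, 25% had a difference of -0.18 or less. Srf (-0.11) and Elk1 (-0.16), which fall outside the naming rule, did not reach that. The share of all measured genes below 0 was not computed. Elk3 was at 9.08 FPKM in the H19 library and 15.2 FPKM in the control library. Elk4 was at 8.20 FPKM in the H19 library and 10.0 FPKM in the control library.

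At the head of the cascade, 1 of 9 measured growth factor receptors was lower by the rule (1.57% of all measured genes), with a median of -0.33. That gene was Fgfr2, an FGF receptor, at 2.22 FPKM in the H19 library and 10.9 FPKM in the control library (log2 difference -1.89), followed by Erbb3, a kinase-impaired partner of the EGF receptor family, at 2.06 FPKM in the H19 library and 3.78 FPKM in the control library (-0.64). Of 6 measured ligands 1 was higher by the rule (1.14% of all measured genes). Their median was 0.54, which was 0.10 with no filter on low values. Areg, the EGF receptor ligand amphiregulin, was at 183 FPKM in the H19 library and 88.5 FPKM in the control library (1.04), a difference that was under 1 with the median of all genes set to 0, as TPM and with equal upper quartiles. Fgf1, an FGF, was at 6.11 FPKM in the H19 library and 12.3 FPKM in the control library (-0.90), and was lower by the rule with a pseudocount of 0.01, as TPM and with equal upper quartiles. The EGF receptor ligands Ereg (log2 difference 0.89) and Btc (0.89), which fall outside the naming rule, lay on the same side as Areg. The authors' deposited table of differences holds Fos, Egr1, Fgfr2, Areg and Fgf1 of the genes named from these lists.

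**Figure D4:**
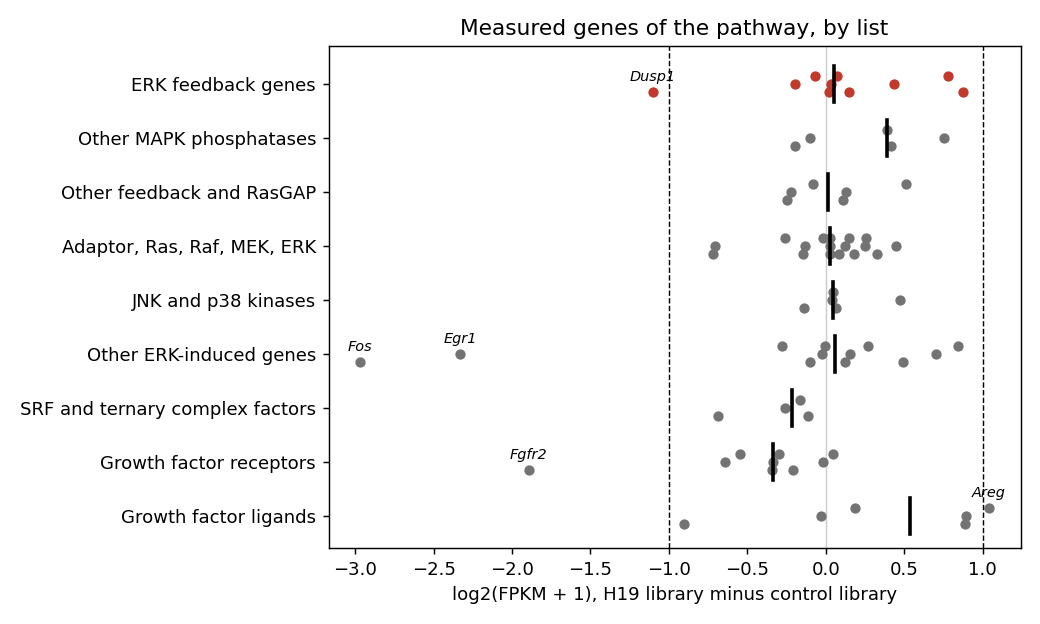
Log2(FPKM + 1) difference, H19 library minus control library, of each measured gene (points, spread vertically for legibility) by list, with the list median as a black bar and the 2-fold rule dashed. Dusp1, Fos, Egr1 and Fgfr2 lie past the lower limit and Areg past the upper one, and the core cascade from adaptors to ERK lies between -0.72 and 0.45.

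Markers of leukocytes, stellate cells and endothelial cells were low in both libraries. The 4 leukocyte markers with a row, 2 of them measured, summed to 1.72 FPKM in the H19 library and 4.73 FPKM in the control library. The measured ones were Cd68, at 0.928 FPKM in the H19 library and 2.75 FPKM in the control library (log2 difference -0.96), and Lyz2. Lyz2 was at 0.412 FPKM in the H19 library and 1.68 FPKM in the control library (-0.93). Itgam was at 0 in the H19 library. Ptprc, which encodes CD45, was at 0.380 FPKM in the H19 library and 0.237 FPKM in the control library. The 5 stellate cell markers with a row, 1 of them measured (Des), summed to 1.20 FPKM in the H19 library and 3.82 FPKM in the control library. Des, which encodes desmin, was at 0.893 FPKM in the H19 library and 3.43 FPKM in the control library (log2 difference -1.23), lower by the rule. The 4 endothelial markers with a row, 1 of them measured (Esam), summed to 2.03 FPKM in the H19 library and 1.95 FPKM in the control library. Adgre1, Lrat and Kdr of these lists were not analysed here. The 5 bile duct markers, 4 of them measured, summed to 463 FPKM in the H19 library and 818 FPKM in the control library, with Epcam at 0.0385 FPKM in the H19 library and 0.0186 FPKM in the control library. Of them the keratin gene Krt7 was lower by the rule, at 10.6 FPKM in the H19 library and 39.7 FPKM in the control library (-1.81). Krt19 was at 219 FPKM in the H19 library and 382 FPKM in the control library (-0.80). Spp1 was at 222 FPKM in the H19 library and 389 FPKM in the control library (-0.80). Sox9, a transcription factor of bile duct cells, was at 11.1 FPKM in the H19 library and 8.02 FPKM in the control library (0.42). Des, Krt7, Cd68 and Lyz2 are also in the authors' deposited table of differences, all as lower. The part of these differences in the values of the ERK feedback genes was not tested.

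**Figure D5:**
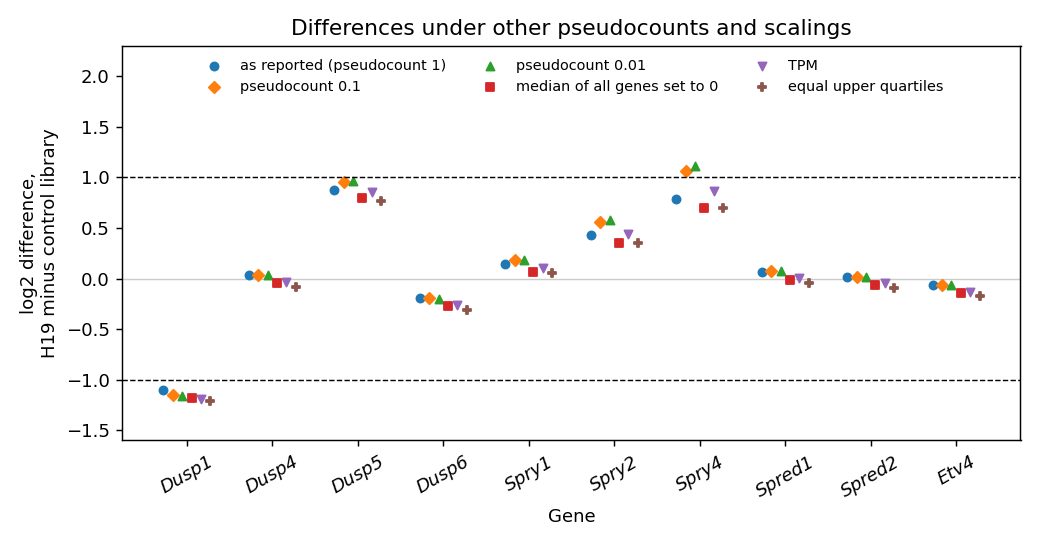
Log2 difference of each ERK feedback gene, H19 library minus control library, as reported and with other pseudocounts or scalings, with the 2-fold rule dashed. Dusp1 lies past the lower limit under each of the 6 settings drawn, and Spry4 passes the upper limit with a pseudocount of 0.1 (1.07) or 0.01 (1.11).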

How the data were processed

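Polyadenylated RNA, per the labels, from 1 library of H19 virus cells and 1 of control virus cells was sequenced. CASAVA 1.4, TopHat2 and the build mm9 are named, without their roles, per the submitters' processing notes. Which program computed FPKM, and whether strand was used, is not given in the sources used here. Expression is in FPKM as deposited, per the file headers. The per-library tables equal the joint table. The authors' deposited table of differences gives, per the file headers, a log2 ratio with p-value and q-value. For 21017 gene identifiers GENCODE release M21 gives a place on GRCm38, and 99.9% of their deposited loci overlap it, so the coordinates printed are those of GRCm38 and not mm9.

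The titles of the samples gave the groups. For each gene log2(FPKM + 1) of the control library was subtracted from that of the H19 library. No test was possible with 1 library per group, and a mean FPKM of at least 1 and a 2-fold difference served as the rule. The members and lists were chosen with earlier results of these data known. The named genes were the 10 members, H19 and, from each pathway list, the genes past the rule and the 2 measured genes with the largest difference. Genes said to fall outside this rule were named after their values were seen.

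FPKM hold no read totals. The step of FPKM times kilobases, the median between 0.03 and 0.06 in genes with 1 annotated transcript of over 3000 bases, was 0.0454 in both libraries, or about 22000000 fragments if the step is 1 fragment; the window was set from the values. The calculation of differences, the 2-fold rule and the TPM and upper quartile scalings were tested on simulated data. The fragment estimates and the motif search were not. The tools were Python 3.11.15 with pandas 2.3.3, numpy 2.4.6 and matplotlib 3.10.9. Promoter sequences are from RefSeq.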

Additional observations from a re-analysis of the deposited data

How the results depend on the processing

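Results were recomputed with a pseudocount of 0.1 or 0.01, without the filter or with a minimum mean of 5 FPKM, the median of all genes set to 0, TPM, equal upper quartiles, the per-library tables, 1.5-fold and 3-fold rules, and the mean over a list. Dusp1 was past the 2-fold rule with each pseudocount, filter, scaling and table, and 0 members passed the 3-fold rule. Of the members, 1 (Spry4) was higher by the rule with either smaller pseudocount, and 2 (Dusp5 and Spry4) by the 1.5-fold rule. Genes of the pathway lists past the rule as higher numbered 2 with a pseudocount of 0.1 or 0.01. The shares of measured genes were then 2.36% and 2.53%. They numbered 0 with the median of all genes set to 0 (0.771% of measured genes), as TPM (1.51%) and with equal upper quartiles (0.737%). By the 1.5-fold rule 6 were higher (8.99%) and 8 lower (6.21%). By the 3-fold rule 0 were higher (0.0942%) and 3 lower (0.360%), which were Egr1, Fgfr2 and Fos. Pathway genes past the 2-fold rule as lower numbered 4, with Fgf1 added, under 3 settings. These were a pseudocount of 0.01 (2.92% of measured genes lower), TPM (2.72%) and equal upper quartiles (2.20%).

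With the median of all genes set to 0, the difference of Dusp4 was -0.0490, of Spred1 -0.0106 and of Spred2 -0.0617, and the median of the members -0.0298. List medians were then -0.0652 for other feedback and Ras-inactivating genes, -0.0532 for the core, -0.0311 for JNK and p38 kinases, -0.0224 for other ERK-induced genes and -0.0703 over all lists. As TPM, Dusp4 was at -0.0317, Spred2 at -0.0432 and the members' median at -0.0112, and the same lists were at -0.0462, -0.0359, -0.0133, -0.00510 and -0.0533. With equal upper quartiles, which put the median of all genes at -0.02 where it was 0.08 as deposited, Dusp4 was at -0.0816, Spred1 at -0.0397, Spred2 at -0.0906 and the members' median at -0.0607, and the lists were at -0.0919, -0.0853, -0.0631, -0.0558 and -0.101. By the mean, the core was at -0.00519, other ERK-induced genes at -0.260 and all lists at -0.0725. These values have the sign opposite to that reported, and lie near 0 except the mean of the ERK-induced genes, which holds Fos and Egr1. No paired analysis was possible because there was 1 library per group, and no library could be left out. Fragment numbers were estimated for 4 of the 10 members, so what depth limits was not compared across them.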
